A study of Homo sapiens with 6 samples.

Results

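Integrins are heterodimeric receptors, built from an alpha and a beta subunit, that attach cells to the extracellular matrix, and laminins are the trimeric glycoproteins of an alpha, a beta and a gamma chain that form the core of the basement membrane. The genes described here are the protein-coding genes named ITGA, ITGB, LAMA, LAMB or LAMC with a number or letter, which gave 38 of the 58735 genes in the table. They comprise 26 integrin genes (18 alpha and 8 beta) and 12 laminin genes (5 alpha, 4 beta and 3 gamma). Members were picked by gene name alone, but these gene families were chosen for description with earlier results of these data known. RNA-seq was performed on PC9-BrM3, a subline of PC9 lung adenocarcinoma cells with a high propensity to colonize the brain, with AKR1B10 silenced by a lentiviral shRNA (BrM3-shAKR1B10, 3 libraries) or with a negative control shRNA (BrM3-shNC, 3 libraries, labelled WT). AKR1B10 is an aldo-keto reductase, and the study asked how its loss alters gene expression in these cells. Both shRNAs were carried by the LV2 vector, both groups came from the same line under routine culture in RPMI1640 with serum, and the knockdown rests on shRNA vector 1 alone, so an effect of AKR1B10 and an effect of that vector cannot be told apart. The labels do not say whether the 3 libraries of a group came from separate cultures, so p-values measure the spread between these libraries, which may be technical.

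Integrin pairs differ in the ligands they prefer, with wide overlap. Subunits alpha3, alpha6 and alpha7 bind laminins, alpha1, alpha2, alpha10 and alpha11 bind collagens, alpha5, alpha8, alphaIIb and alphaV recognize the RGD motif of fibronectin, vitronectin and osteopontin, and the beta2 and beta7 families serve leukocytes. The pair of alpha6 and beta4 anchors epithelial cells to laminin-332, which holds the chains of LAMA3 and LAMB3, through the hemidesmosome, whereas LAMA4 and LAMA5 join LAMB1 or LAMB2 and LAMC1 in the laminins of vessels and epithelia. In brain metastasis, integrins and laminins are known for the contact of tumor cells with the vascular basement membrane.

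Reads on genes, recovered from the deposited FPKM values (read fragments scaled to gene length and to a size set for each library), numbered 16964504 to 18709028 per library. For a gene of 1000 bases, 3 reads equal 0.163 to 0.177 FPKM, a limit that covers counting error only. The AKR1B10 level was 108.2, 107.2 and 110.2 FPKM in BrM3-shAKR1B10 and 798.7, 775.0 and 772.0 FPKM in BrM3-shNC, and 13.9% of the control level was left (log2 fold change -2.85, SE 0.03, limma with Benjamini-Hochberg adjusted p = 1.6e-07). All 7 epithelial markers were expressed and none was called, although EPCAM and KRT7 fell and CDH1 rose by less than the threshold defined below, with summed levels of 3259 to 3350 FPKM in BrM3-shAKR1B10 and 3078 to 3451 FPKM in BrM3-shNC. Of the 4 lung lineage markers none reached a mean of 1 FPKM, and NKX2-1, the lung transcription factor, averaged 0.154 and 0.156 FPKM, so the lung label was not borne out by these markers. Among 4 fibroblast markers COL1A2 and DCN were listed at 0 in all 6 libraries and COL1A1 was called lower, with summed levels of 1.20 to 1.35 FPKM against 2.03 to 2.05 FPKM. Of 3 glial markers only MBP reached 1 FPKM, and it fell from 3.41 to 2.56 FPKM.

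Genes with a mean of at least 1 FPKM were tested, 13150 in all, with limma on log2(FPKM + 0.1), a scale that understates the change of low genes. Below, a gene is said to have risen or fallen where its Benjamini-Hochberg adjusted p was under 0.05, and to be called where the absolute log2 fold change was also above 0.5. Of the 38 genes, 20 were tested, 12 integrins and 8 laminins, with 207 to 24622 reads per gene and library. After AKR1B10 silencing, LAMC1, LAMA4, ITGB4 and ITGB2 were called higher by 1.44-fold to 1.64-fold, and ITGA5 was called lower by 2.12-fold. Calls higher were thus 4 of 20 (20%), beside 5.83% of all genes tested, and calls lower were 1 of 20 (5%), beside 7.45% of all genes. Irrespective of size, 10 of the 20 rose, beside 19.4% of all genes, and 4 fell, beside 23.1% of all genes. The libraries of the 2 groups did not overlap for 17 of the 20 (85%), beside 54.7% of all genes.

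Laminins and integrins are given apart. Among the 8 laminins tested, 6 rose, none fell and the median log2 fold change was 0.33, whereas among the 12 integrins 4 rose, 4 fell and the median was 0.00. The median over all 13150 genes was -0.01, and the difference between the 2 families was not tested. RNA-seq of a whole culture gives RNA per library, so a change in the number of cells that express a gene and a change in its RNA per cell cannot be told apart.

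**Figure D1:**
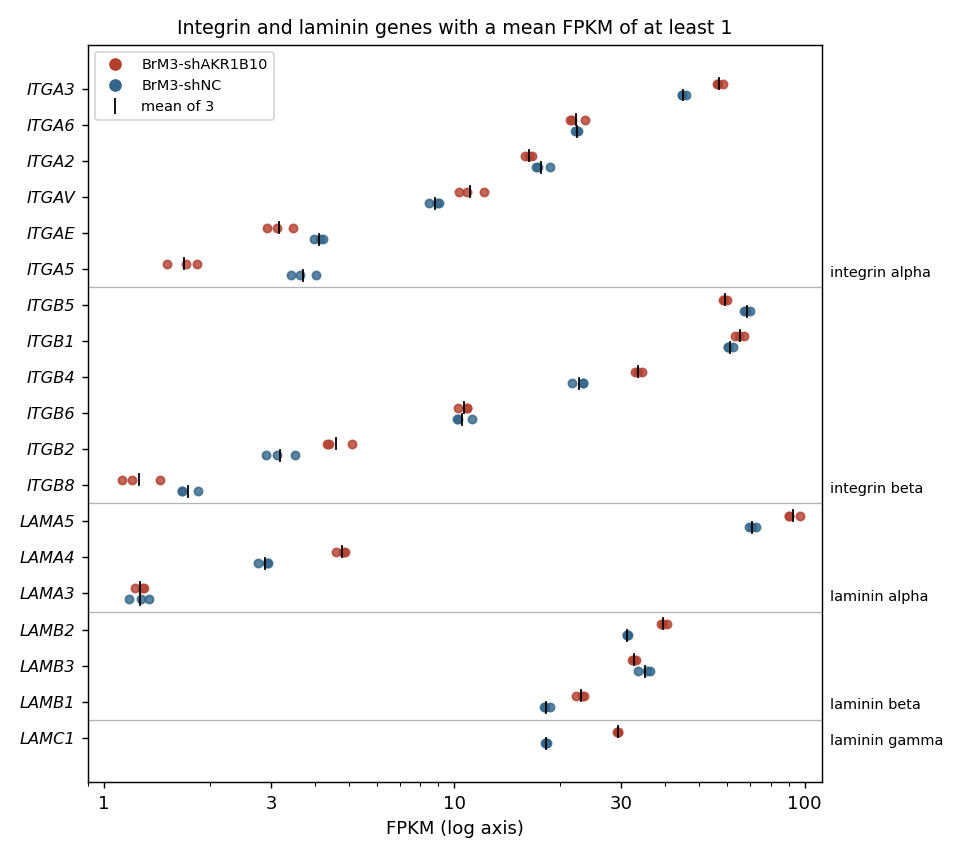
Level of 19 tested genes in FPKM (log axis) in every library, with BrM3-shAKR1B10 in red, BrM3-shNC in blue and a black tick at the mean of 3. The red points lie right of the blue ones for LAMC1, LAMA4, ITGB4 and ITGB2 and left of them for ITGA5, while ITGA6, ITGB6 and LAMA3 overlap.

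LAMC1 (ENSG00000135862), the gamma1 chain shared by most laminins, spans bases 183023460 to 183145592 of chromosome 1 on the plus strand (GRCh38, as deposited), with 28 exons in its longest coding transcript of GENCODE 29. Its level was 29.1, 29.3 and 29.4 FPKM in BrM3-shAKR1B10 and 18.1, 18.4 and 18.2 FPKM in BrM3-shNC. The groups were far apart compared with their spread, and the log2 fold change was 0.68 (SE 0.028, 95% confidence interval 0.61 to 0.75, limma adjusted p = 2e-05).

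The laminin alpha chains were led by LAMA5, the alpha5 chain of mature epithelial and vascular basement membranes and the gene with the highest level of all 38 on the deposited scale. LAMA5 measured 90.4, 90.5 and 97.2 FPKM in BrM3-shAKR1B10 and 69.4, 70.6 and 72.5 FPKM in BrM3-shNC. It rose in each knockdown library, with a log2 fold change of 0.39 (SE 0.039, limma adjusted p = 0.00048), below the threshold for a call. On the opposite strand ADRM1 shares 244 exonic bases with LAMA5 and averaged 65.5 and 70.5 FPKM.

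LAMA4 (ENSG00000112769), the alpha4 chain of endothelial and mesenchymal laminins, spans bases 112108760 to 112254939 of chromosome 6 on the minus strand and has 39 exons in its longest coding transcript. Its level was 4.83, 4.88 and 4.59 FPKM in BrM3-shAKR1B10 and 2.76, 2.92 and 2.93 FPKM in BrM3-shNC. LAMA4 was called higher with a log2 fold change of 0.71 (SE 0.056, 95% confidence interval 0.58 to 0.84, limma adjusted p = 0.00016), the largest rise among the 20 genes. Of the 3 endothelial markers, CDH5 was called higher as well, at 1.85 against 1.14 FPKM, while PECAM1 averaged 0.272 against 0.438 FPKM and VWF 0.126 against 0.0847 FPKM. The summed endothelial level was 2.10 to 2.37 FPKM in BrM3-shAKR1B10 and 1.52 to 1.79 FPKM in BrM3-shNC, and its part in the LAMA4 result was not tested. LAMA3, the alpha3 chain of laminin-332, was low at 1.23 to 1.30 FPKM in BrM3-shAKR1B10 and 1.18 to 1.34 FPKM in BrM3-shNC. Its groups overlapped (log2 fold change 0.01, 95% confidence interval -0.30 to 0.31, limma adjusted p = 0.98).

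Of the beta chains, LAMB1 and LAMB2 rose and LAMB3 did not pass the test. LAMB2, the beta2 chain found at vessels and synapses, measured 40.4, 38.8 and 39.4 FPKM in BrM3-shAKR1B10 against 31.1, 31.4 and 31.1 FPKM (log2 fold change 0.34, SE 0.029, limma adjusted p = 0.00025). LAMB1, the widely expressed beta1 chain, measured 22.3, 23.1 and 23.5 FPKM against 18.8, 18.0 and 18.1 FPKM (log2 fold change 0.32, SE 0.036, limma adjusted p = 0.00066). Both rises were of similar size and neither reached the threshold for a call. LAMB3, the beta3 chain of laminin-332, measured 32.5, 32.1 and 33.1 FPKM against 33.4, 35.4 and 36.2 FPKM. All 3 knockdown libraries lay below all 3 controls, by a log2 fold change of -0.10 (SE 0.039, 95% confidence interval -0.19 to -0.01) that had a limma adjusted p of 0.079. It was -0.06 with TPM scaling (limma adjusted p = 0.33), -0.02 with quantile normalization (0.75) and -0.13 without replicate 1 of BrM3-shNC (0.02).

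Ratios between chains are given as values, with no test. In the LAMC1-containing laminins, LAMA4, LAMA5, LAMB1, LAMB2 and LAMC1 all rose. The LAMA5 level was 3.11, 3.08 and 3.31 times that of LAMC1 in BrM3-shAKR1B10 and 3.83, 3.84 and 3.98 times in BrM3-shNC, with no overlap. The ratio of LAMB2 to LAMB1 overlapped between the groups, at 1.68 to 1.81 and 1.66 to 1.74.

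ITGA5 (ENSG00000161638), the alpha5 subunit that pairs with beta1 as the main fibronectin receptor, spans bases 54395261 to 54419460 of chromosome 12 on the minus strand and has 30 exons in its longest coding transcript. Its level was 1.72, 1.51 and 1.84 FPKM in BrM3-shAKR1B10 and 3.63, 4.03 and 3.42 FPKM in BrM3-shNC, from 207 to 247 and from 473 to 517 reads per library. All 3 control libraries lay well above the knockdown libraries. The log2 fold change was -1.09 (SE 0.101, 95% confidence interval -1.33 to -0.84, limma adjusted p = 0.00034), and 180 of the 13150 genes tested had a lower one. Its ligand fibronectin, FN1, was called lower as well, at 30.8, 31.3 and 31.2 FPKM against 47.3, 45.9 and 45.5 FPKM (log2 fold change -0.57, SE 0.03, limma adjusted p = 3.5e-05). Its partner ITGB1, the beta1 subunit common to the largest integrin family, measured 63.5, 67.1 and 65.0 FPKM against 62.3, 60.5 and 60.5 FPKM. ITGB1 was higher in each knockdown library without passing the test (log2 fold change 0.09, SE 0.033, limma adjusted p = 0.06), which it did with TPM scaling (0.02), quantile normalization (0.015) and voom on the reads (0.032).

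Promoter sequences are shown for the called genes, since these had the largest log2 fold changes among the integrin and laminin genes tested. RefSeq promoter windows, of 250 bases before to 50 after an annotated start (GRCh38.p14), were found for 26 of the 38 genes and for 3 of the 5 called, at chr1:183023170-183023469 on the plus strand and at chr6:112254518-112254817 and chr12:54419217-54419516 on the minus strand. They are printed 5′ to 3′, and capitals mark matches on either strand to an AP-1 site, a TATA box, a GC box or a TEAD site, none of which overlapped another in these windows.
LAMC1 promoter: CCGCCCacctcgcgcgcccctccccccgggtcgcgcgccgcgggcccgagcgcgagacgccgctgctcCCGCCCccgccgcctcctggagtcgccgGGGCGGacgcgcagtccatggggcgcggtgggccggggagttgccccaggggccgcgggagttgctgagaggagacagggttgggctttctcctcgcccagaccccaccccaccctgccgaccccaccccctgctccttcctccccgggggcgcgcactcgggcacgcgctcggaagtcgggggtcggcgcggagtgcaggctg
LAMA4 promoter: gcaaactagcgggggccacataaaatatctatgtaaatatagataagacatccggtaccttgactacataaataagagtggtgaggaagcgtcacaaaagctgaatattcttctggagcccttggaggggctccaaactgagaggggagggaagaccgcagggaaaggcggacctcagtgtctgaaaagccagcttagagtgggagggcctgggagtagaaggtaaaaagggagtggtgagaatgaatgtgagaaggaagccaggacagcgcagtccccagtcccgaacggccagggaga
ITGA5 promoter: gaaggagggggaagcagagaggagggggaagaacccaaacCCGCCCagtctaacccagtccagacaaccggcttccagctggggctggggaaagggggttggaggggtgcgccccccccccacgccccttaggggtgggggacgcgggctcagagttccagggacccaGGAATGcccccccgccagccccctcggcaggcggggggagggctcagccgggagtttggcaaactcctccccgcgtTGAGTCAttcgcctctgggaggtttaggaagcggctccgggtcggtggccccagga
The GC content of these windows was 79.0% in LAMC1, 51.3% in LAMA4 and 69.3% in ITGA5, beside a median of 58.7% over all promoters. ITGA5 held an AP-1 match 6 bases before the start, a TEAD match 82 bases before it and a GC box 210 bases before it. LAMC1 held 3 GC boxes, 250, 182 and 154 bases before the start, and LAMA4 none of the 4 motifs. An AP-1 site, searched as TGANTCA, was in 7.71% of all 35116 promoter windows and, among the 33 windows of the 26 genes, in those of ITGA5, LAMA3 and LAMB3 (9.09%). The GC box, searched as GGGCGG, was in 45% of all windows and 57.6% of the 33. The TEAD site was searched as GGAATG and found in 14.0% of all windows and 12.1% of the 33. For the TATA box, searched as TATAAA, these shares were 11.5% and 6.06%. Such matches describe letters in a window and not binding.

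**Figure D2:**
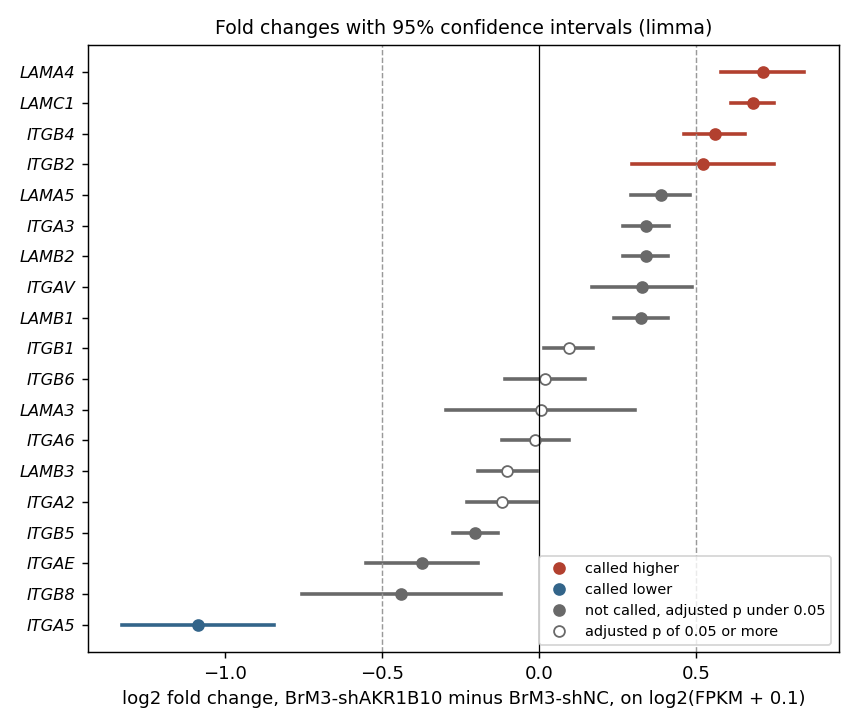
Log2 fold change of 19 tested genes (BrM3-shAKR1B10 minus BrM3-shNC, on log2(FPKM + 0.1)) with 95% confidence intervals from limma, ordered by size; dashed lines mark -0.5 and 0.5. ITGA5 at -1.09 stands apart on the left, and LAMB1, LAMB2, LAMA5, LAMC1 and LAMA4 lie between 0.32 and 0.71 on the right.

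Among the laminin-binding integrins, ITGB4 was called higher, ITGA3 rose and ITGA6 showed no detectable change. ITGB4 (ENSG00000132470), the beta4 subunit of the hemidesmosome, spans bases 75721328 to 75757818 of chromosome 17 on the plus strand, with 40 exons in its longest coding transcript. Its level was 33.5, 32.8 and 34.3 FPKM in BrM3-shAKR1B10 and 21.7, 23.2 and 23.3 FPKM in BrM3-shNC. The lowest knockdown library lay above the highest control, with a log2 fold change of 0.56 (SE 0.04, 95% confidence interval 0.46 to 0.66, limma adjusted p = 0.00012). ITGA6, the alpha subunit with which beta4 pairs, measured 21.7, 23.5 and 21.3 FPKM against 22.1, 22.5 and 22.4 FPKM, and the groups overlapped (log2 fold change -0.01, 95% confidence interval -0.12 to 0.09, limma adjusted p = 0.85). Thus, on the deposited scale, the ITGA6 level was 0.964 to 1.02 times that of ITGB4 in BrM3-shNC and 0.622 to 0.718 times in BrM3-shAKR1B10. This ratio depends on the gene lengths used. Rescaled to the longest coding transcript, ITGA6 lay above ITGB4 in both groups. The rescaled means were 43.0 against 26.0 FPKM in BrM3-shNC and 42.7 against 38.3 FPKM in BrM3-shAKR1B10. ITGA3, whose product pairs with beta1 and binds laminin-332 and the alpha5 laminins, measured 56.8, 56.1 and 58.4 FPKM against 44.6, 44.6 and 45.9 FPKM. It rose with a log2 fold change of 0.34 (SE 0.031, limma adjusted p = 0.00028), under the threshold for a call.

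The RGD-binding integrins moved in both directions. ITGAV, the alphaV subunit shared by several beta subunits, measured 12.1, 10.8 and 10.3 FPKM in BrM3-shAKR1B10 and 8.46, 9.05 and 8.92 FPKM in BrM3-shNC. It rose (log2 fold change 0.33, SE 0.066, limma adjusted p = 0.0082) and did not reach the threshold for a call. Relative to ITGA5, the ITGAV level was 7.06, 7.17 and 5.61 times as high with the knockdown and 2.33, 2.24 and 2.61 times as high without. ITGB5, the beta5 subunit of a vitronectin receptor and the most abundant beta subunit in BrM3-shNC on this scale, measured 60.1, 58.7 and 59.0 FPKM against 67.0, 68.0 and 69.8 FPKM. It fell slightly, with a log2 fold change of -0.20 (SE 0.03, limma adjusted p = 0.0022). ITGB8, whose product with alphaV activates latent TGF-beta, measured 1.45, 1.20 and 1.13 FPKM against 1.85, 1.67 and 1.67 FPKM. The log2 fold change was -0.44 (SE 0.132, limma adjusted p = 0.036), which passed the test narrowly and was not called. The adjusted p was 0.074 to 0.1 without replicate 2 or 3 of BrM3-shAKR1B10 or without any 1 of the BrM3-shNC libraries. ITGB6, the epithelial beta6 subunit, measured 10.9, 10.2 and 10.9 FPKM against 11.2, 10.2 and 10.2 FPKM, with overlapping groups (log2 fold change 0.02, 95% confidence interval -0.11 to 0.15, limma adjusted p = 0.81).

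ITGA2, the alpha2 subunit of the collagen receptor, was the only collagen-binding alpha chain with a mean of at least 1 FPKM. It measured 16.4, 15.9 and 16.6 FPKM in BrM3-shAKR1B10 and 18.8, 17.3 and 17.1 FPKM in BrM3-shNC. The knockdown libraries lay below the controls, with a log2 fold change of -0.12 (SE 0.047, limma adjusted p = 0.083) that did not pass the test. It was -0.12 with voom (limma adjusted p = 0.035), -0.08 with quantile normalization (0.22) and -0.08 without replicate 1 of BrM3-shNC (0.16).

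Genes of leukocyte integrins were also measured. ITGB2 (ENSG00000160255), the beta2 subunit, spans bases 44885953 to 44931989 of chromosome 21 on the minus strand, with 16 exons in its longest coding transcript. Its level was 5.09, 4.33 and 4.39 FPKM in BrM3-shAKR1B10 and 3.13, 3.50 and 2.89 FPKM in BrM3-shNC. The groups did not overlap, and ITGB2 was called higher just past the threshold (log2 fold change 0.52, SE 0.094, 95% confidence interval 0.30 to 0.75, limma adjusted p = 0.0052). Without replicate 1 of BrM3-shAKR1B10 or replicate 3 of BrM3-shNC, the log2 fold change was 0.45 or 0.46 and the call was lost. Its antisense neighbor ITGB2-AS1, which shares 303 exonic bases with it, averaged 1.79 and 1.14 FPKM, and since the library protocol does not mark strand, reads in the shared bases cannot be told apart. None of the 5 leukocyte markers reached a mean of 1 FPKM, their sum was 1.16 to 1.19 FPKM in BrM3-shAKR1B10 and 1.32 to 1.64 FPKM in BrM3-shNC, and PTPRC, which encodes the leukocyte antigen CD45, averaged 0.0552 and 0.0756 FPKM. ITGAL, ITGAM, ITGAX and ITGAD, the alpha partners of beta2, had at most 17 reads in any library.

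ITGAE, the alphaE subunit of the receptor for E-cadherin, measured 3.46, 2.92 and 3.11 FPKM in BrM3-shAKR1B10 and 3.99, 4.15 and 4.22 FPKM in BrM3-shNC. It fell with a log2 fold change of -0.37 (SE 0.074, limma adjusted p = 0.0076), under the threshold for a call. ITGB7, the beta subunit gene of the beta7 family, had at most 12 reads in any library. HASPIN, a kinase gene nested in ITGAE on the opposite strand with 427 shared exonic bases, averaged 3.08 and 4.78 FPKM, and its part in the ITGAE result was not tested.

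Summed over each class, the levels of the integrin subunits and of the laminin alpha and beta chains were higher in BrM3-shAKR1B10. The laminin alpha chains summed to 99.0 ± 3.70 FPKM (SD, n = 3) against 75.2 ± 1.60 FPKM, and the laminin beta chains to 95.3 ± 0.926 FPKM against 84.6 ± 1.11 FPKM. The integrin alpha subunits summed to 113.0 ± 0.744 FPKM against 103.5 ± 0.456 FPKM and the beta subunits to 174.7 ± 0.145 FPKM against 167.6 ± 0.745 FPKM. These sums were not tested. All 38 genes together took 0.456% of the reads on genes in BrM3-shAKR1B10 and 0.374% in BrM3-shNC.

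Shares of single chains within each class are given with no test as well. ITGB4 made up 19.2% ± 0.417 (SD, n = 3) of the summed beta subunit level in BrM3-shAKR1B10 and 13.6% ± 0.529 in BrM3-shNC, while ITGB5 made up 33.9% ± 0.431 and 40.7% ± 0.710. The share of ITGB1 overlapped between the groups, at 37.3% ± 1.07 and 36.4% ± 0.695, whereas the other shares named here did not. Of the alpha subunits, ITGA3 made up 50.5% ± 1.03 and 43.5% ± 0.533, and ITGA5 1.49% ± 0.141 and 3.57% ± 0.315. LAMB3 made up 34.2% ± 0.193 and 41.4% ± 1.18 of the laminin beta chains. LAMA5 held 93.7% ± 0.407 and 94.2% ± 0.0600 of the alpha chains. The deposited gene length counts all exons of a gene, and it was 1.005 to 2.67 times the longest coding transcript, with the highest ratio in ITGA3, so levels of different genes depend on it. Rescaled to that transcript, ITGA3 had the highest level of the 38 genes in both groups (152.7 and 120.5 FPKM). LAMA5 was at 115.9 and 88.6 FPKM, and in BrM3-shNC it was below ITGB5 (100.7 FPKM) and ITGB1 (98.5 FPKM). The ratio of a gene's FPKM between the groups does not depend on this length. The limma fit with its pseudocount was not rerun on rescaled levels.

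**Figure D3:**
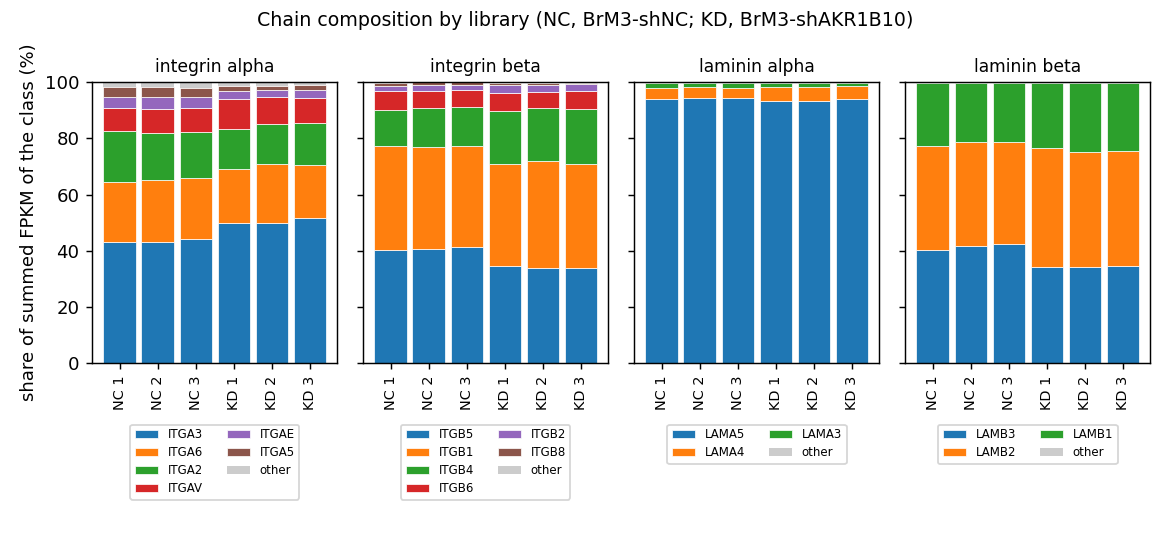
Share of each chain in the summed FPKM of its class (percent), with 1 bar for each library of BrM3-shNC (NC) and BrM3-shAKR1B10 (KD). In the knockdown libraries ITGB4 takes a larger and ITGB5 a smaller part of the beta subunits, and LAMB3 takes a smaller part of the laminin beta chains.

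The other 18 genes had means of at most 0.681 FPKM and were not tested. They were ITGA2B, ITGA10, LAMA2, LAMB4, ITGAM, ITGA7, LAMC3, ITGAD, ITGA11, ITGA9, ITGA1, ITGB7, ITGB3, ITGAX, ITGA4, ITGAL, LAMA1 and ITGA8. ITGA8 had 0 reads in all 6 libraries, and LAMA1 had 1 read in 1 library. For 6 of the 18 the groups did not overlap in FPKM, with ITGA2B lower and LAMB4, ITGA10, ITGA11, ITGB7 and ITGAX higher in BrM3-shAKR1B10. These are 35.3% of the 17 with a read, beside 13.8% of all genes with a read and a mean under 1 FPKM. ITGAX had only 7, 6 and 2 reads against 1, 0 and 1. ITGB7 had 8, 12 and 7 reads against 7, 1 and 6, so its reads met at 7. ZNF740, on the strand opposite to ITGB7 with 1886 shared exonic bases, averaged 5.56 and 4.59 FPKM. Its part in the ITGB7 values was not tested. ITGA2B, the alphaIIb subunit of platelets, had 42, 48 and 35 reads in BrM3-shAKR1B10 and 77, 78 and 125 in BrM3-shNC. LAMB4, a beta chain gene of little known function, had 24, 34 and 31 reads against 7, 7 and 7. With no filter on low values these last 2 genes passed the threshold for a call in limma, ITGA2B with a log2 fold change of -0.98 (adjusted p = 0.046) and LAMB4 with 1.10 (adjusted p = 0.028), and no other of the 18 did. In that fit 3.44% of all 31583 genes were called lower and 2.98% higher.

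**Figure D4:**
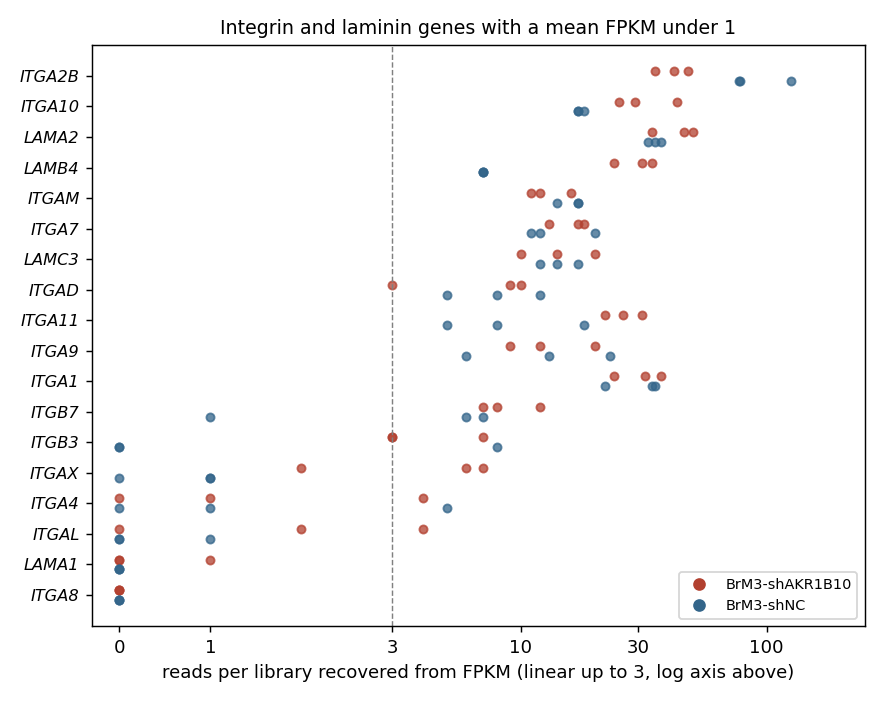
Reads per library, recovered from FPKM, for the 18 genes with a mean under 1 FPKM (axis linear up to 3 reads and logarithmic above; the dashed line marks 3 reads). Red points are BrM3-shAKR1B10 and blue points BrM3-shNC. The groups lie apart for LAMB4, ITGA10, ITGA11 and ITGAX, with red to the right, and for ITGA2B, with red to the left. For ITGB7 a red and a blue point meet at 7 reads.

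The genes around these receptors were read from lists of integrin adaptors, kinases, ligands and laminin partners written from general knowledge, and the background shares of calls are those given above for all 13150 genes. Hemidesmosome partners included PLEC, the plectin that links beta4 to keratins, which was called higher at 56.5, 58.4 and 61.6 FPKM against 37.5, 41.2 and 41.6 FPKM (log2 fold change 0.55, SE 0.054, limma adjusted p = 0.0004). PLEC was the 1 call among 4 tested, and COL17A1, the hemidesmosomal collagen, was low at 0.177 and 0.375 FPKM. Adaptors between integrins and actin held 2 calls higher and 2 lower of 22 tested, with a median log2 fold change of 0.00. TNS4, a tensin without an actin-binding domain, was higher at 8.80 against 5.61 FPKM, and KANK1, which borders focal adhesions, at 2.43 against 1.60 FPKM. PARVB, a parvin, was lower at 1.34 against 1.96 FPKM, and the filamin FLNC at 1.45 against 2.21 FPKM. Of 22 kinases and signal relays, PAK1, an effector of RAC1, was the only call, lower at 4.54 against 7.18 FPKM (median of the list -0.02).

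Ligands other than laminins held the 2 largest changes among these lists, in TNC and SPP1. Of 14 tested, 2 were called higher and 3 lower, and the median log2 fold change was -0.09. TNC, which encodes the matrix protein tenascin-C, measured 4.97, 4.87 and 5.10 FPKM in BrM3-shAKR1B10 and 20.5, 21.2 and 20.8 FPKM in BrM3-shNC (log2 fold change -2.04, SE 0.037, limma adjusted p = 1.9e-06). SPP1, which encodes the RGD ligand osteopontin, measured 118.9, 107.7 and 108.0 FPKM against 45.0, 45.7 and 45.2 FPKM (log2 fold change 1.30, SE 0.045, limma adjusted p = 1.1e-05). TNC and SPP1, both ligands of RGD-binding integrins, thus moved in opposite directions. NPNT, the basement membrane ligand nephronectin, was higher at 4.09 against 1.88 FPKM, and COL1A1, the collagen I alpha1 chain, was lower at 1.22 against 1.98 FPKM.

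Among the basement membrane partners of laminins, none of the 8 tested was called higher, COL4A2 (2.06 against 3.02 FPKM) and COL4A5 (6.38 against 9.21 FPKM), both collagen IV chains, were called lower, and the median log2 fold change was -0.12. Laminin receptors other than integrins held 2 calls higher and 1 lower of 13 tested, with a median of 0.20. The syndecan SDC4 was higher at 131.5 against 88.4 FPKM, while the sarcoglycan SGCE was lower at 0.999 against 2.14 FPKM. Of 13 tetraspanins and other lateral partners, CD82 was called higher at 10.2, 8.66 and 9.10 FPKM against 4.07, 4.26 and 5.38 FPKM (log2 fold change 1.02, SE 0.115, limma adjusted p = 0.00071). PLAUR, the urokinase receptor, was called lower at 3.31 against 4.90 FPKM, and the median of this list was 0.07.

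**Figure D5:**
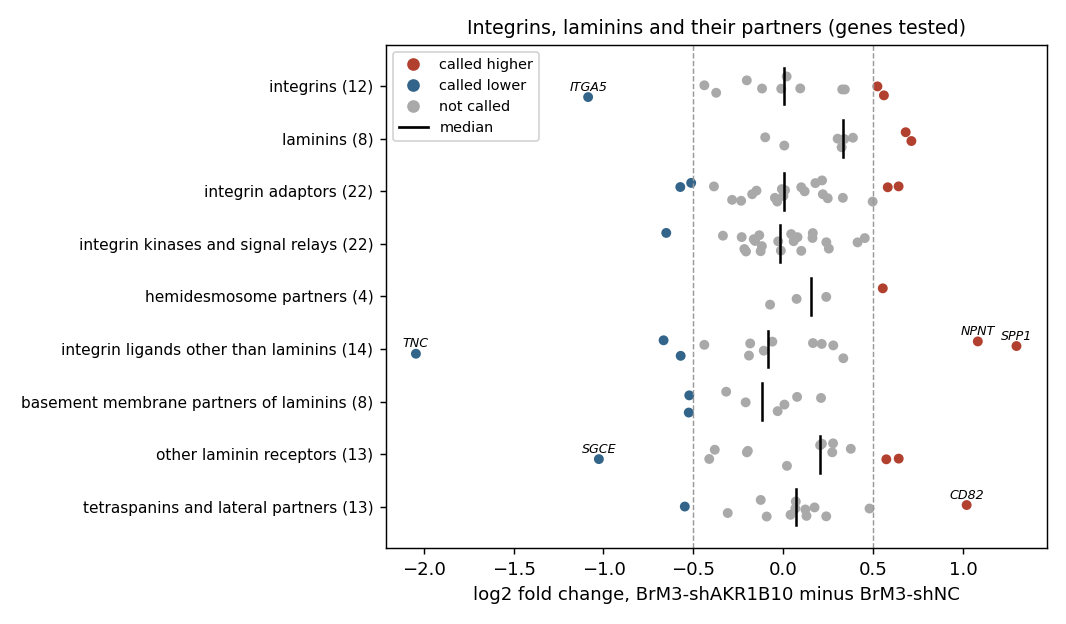
Log2 fold change (BrM3-shAKR1B10 minus BrM3-shNC) of each tested gene in the integrins, the laminins and 7 lists of partners, with the number tested in brackets, a black line at the median and dashed lines at -0.5 and 0.5. Red and blue points were called higher and lower, the laminins have the highest median at 0.33, and TNC at -2.04 and SPP1 at 1.30 lie farthest out.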

How the data were processed

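RNA-seq of 3 BrM3-shAKR1B10 and 3 BrM3-shNC libraries was analysed, grouped and numbered as their titles in the labels say, and the identity of the vector came from legends in the paper. The authors aligned clean reads with HISAT2 2.0.5, counted them per gene with featureCounts 1.5.0-p3 and deposited FPKM values, with replicates not pooled. The genome build is not given in the sources used here, but all 58735 genes have the identifier and position of GENCODE 29 (GRCh38). Whether counting used the strand is not given either. FPKM times gene length gave whole reads (within 0.01) for 100% of values. The library size these values imply was above the reads on genes in each BrM3-shAKR1B10 library (17669819 against 17253067 in replicate 1). In each BrM3-shNC library it was below them (18350584 against 18709028 in replicate 1). No pair of libraries of a group agreed within sampling noise. The chi-square per gene was 4.50 and 4.97 for the pairs with replicate 1 of BrM3-shNC and 2.35 to 2.57 for the other pairs.

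Genes with a mean of at least 1 FPKM entered limma 3.58.1 (R 4.3.3) as log2(FPKM + 0.1) (eBayes with a mean-variance trend and Benjamini-Hochberg adjustment over 13150 genes). The thresholds were an adjusted p of 0.05 and an absolute log2 fold change of 0.5. The study ran its test on counts, and limma on the deposited FPKM took its place here. The fit was tested on simulated data. No test was run on a list. The named genes are all 38 integrin and laminin genes, AKR1B10, and up to 4 called genes in each direction from each list of partners, of which 1 laminin gene and 1 partner are not reported here, although the counts and medians include them. CCN1 and CCN2 were matched under the symbols CYR61 and CTGF. The genes and lists were chosen with earlier results of these data known. COL17A1, HASPIN, ADRM1, ZNF740 and ITGB2-AS1 were named after their values were seen. Promoter sequences came from RefSeq tables, and figures were drawn with matplotlib 3.10.9 in Python 3.11.15. Alternatives are given in the closing section.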

Additional observations from a re-analysis of the deposited data

How the results depend on the processing

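None of the 14 integrin and laminin genes that rose or fell changed direction in the 15 or 16 other settings that gave it a value. Among these settings, median-of-ratios scaling matches the libraries by their median gene ratio. It left these log2 fold changes nearly as they were (0.387 in both fits for LAMA5) and was no separate check. The partner and marker genes were compared under the settings of the report alone. The numbers of integrin and laminin genes called, 1 lower and 4 higher, were 1 and 4 with the replicate block, with voom on the recovered reads and with TPM scaling. With no filter on low values 2 were called lower (ITGA5 and ITGA2B) and 5 higher. With a mean of at least 5 FPKM 0 were called lower and 2 higher, because that filter leaves out ITGA5, LAMA4 and ITGB2. Quantile normalization gave 2 lower, adding ITGB8 at a log2 fold change of -0.50. A log2 fold change threshold of 1 left 1 lower and 0 higher. With each library left out in turn, the counts ran from 1 to 2 lower and from 3 to 4 higher, with ITGB8 at -0.54 without replicate 1 of BrM3-shAKR1B10. ITGB2 was at 0.42 with a pseudocount of 1 and was not called there, nor without replicate 1 of BrM3-shAKR1B10 or replicate 3 of BrM3-shNC. ITGA5, ITGB4, LAMA4 and LAMC1 kept their calls with any 1 library left out. The fall of ITGB8 passed the test in the report and not with the replicate block (limma adjusted p = 0.053), with no filter (0.069) or in 5 of the 6 fits that left out a library (0.074 to 0.1). Conversely, ITGB1 passed with TPM scaling (limma adjusted p = 0.02), quantile normalization (0.015) and voom (0.032), ITGA2 with voom (0.035) and LAMB3 without replicate 1 of BrM3-shNC (0.02), while quantile normalization gave ITGA2 0.22 and LAMB3 0.75.

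Over all genes, 980 were called lower and 766 higher, against 205 and 168 with a log2 fold change threshold of 1, 532 and 290 with a mean of at least 5 FPKM, 708 and 497 with a pseudocount of 1, and 852 and 878 with TPM scaling. Same-numbered libraries did not deviate together (correlations of -0.0155, 0.00388 and 0.00383), so the replicate block rests on the number alone. At this depth, the 18 genes with means under 1 FPKM allow few statements.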

Other observations

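Several genes that lie across the integrin and laminin genes were measured and belong to no comparison above. DLD, on the strand opposite to LAMB1 with 70 shared exonic bases, averaged 22.8 FPKM with the knockdown and 26.5 FPKM without it, and the antisense gene AC005046.1, with 221 shared bases, averaged 1.91 and 1.72 FPKM. LAMC1-AS1, antisense to LAMC1 with no shared exonic base, measured 1.54, 1.85 and 1.77 FPKM in the knockdown libraries and 1.71, 0.617 and 1.14 FPKM in the controls, from at most 16 reads per library. The filamin FLNA, an actin crosslinker that binds beta subunits, fell with a log2 fold change of -0.39 (198.0 against 258.8 FPKM, limma adjusted p = 0.00031), under the threshold for a call. It was named after its values were seen.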
